A study of Homo sapiens with 6 samples.

Results

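The CAL27 line that expressed the Q311E form of MB21D2 was compared with the CAL27 line that expressed the wild-type form, using 4 of the 6 RNA sequencing libraries of the study, 2 for each line. Genes entered with a mean of at least 1 FPKM (reads relative to the length of the gene and to the size of the library) over these 4 libraries, which left 11517 of the 30178 genes in the table. CAL27 is an established line from a squamous carcinoma of the tongue, which the labels call adenosquamous. Per the labels, all lines stably expressed proteins fused to GFP and were kept in DMEM under G418 selection: 2 libraries (A and B) had the Q311E form, 2 had the wild-type form, and 2 had an empty vector. The vector libraries took no part in the fit, and their values are given beside some genes only to place them. The labels do not say whether a line is 1 clone or a pool, nor whether A and B came from different cultures. The p-values therefore reflect no more than the spread between libraries, and that spread may be technical.

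MB21D2 carries a Mab-21 domain and belongs to the same protein family as cGAS, the enzyme that senses cytosolic DNA and feeds the interferon pathway through STING. Q311E exchanges a glutamine for a glutamate, which adds a negative charge. Several programmes described here have well-known regulators: SREBP factors switch on cholesterol and fatty acid genes when membrane sterol is low, interferons switch on antiviral genes through a complex that holds STAT2 and IRF9, and MYC promotes the genes that build ribosomes.

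The library totals lay between 21279535 and 22805846 reads in the 4 libraries. The Q311E libraries were further apart than the wild-type ones: the SD of the log2 difference between A and B was 0.441 in Q311E and 0.147 in the wild type. In CAL27 the keratin KRT5 stood at 473 and 579 FPKM in Q311E and 405 and 417 in the wild type, and the epithelial adhesion gene EPCAM at 144.5 and 115.6 against 167 and 163. KRT14, a keratin from the same list of squamous markers, was low in both lines. It stood at 0.771 and 0.902 FPKM in Q311E and 2.08 and 2.35 in the wild type, with 762 and 697 in the vector libraries. The fibroblast markers summed to between 2.56 and 3.86 FPKM in the 4 libraries, with POSTN listed at 0 in all of them. Of the leukocyte markers, PTPRC was listed at 0 and CD14 was the only member tested. The endothelial gene CDH5 stood at 22.6 and 35.2 FPKM in Q311E and 15.9 and 15.4 in the wild type, while PECAM1, another endothelial marker, did not pass 0.4 FPKM.

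MB21D2, the introduced gene, was lower in the Q311E line. It stood at 32.8 and 21.2 FPKM in Q311E A and B and at 104 and 106 in wild type A and B, with 8.31 and 7.15 in the vector libraries. Both Q311E libraries lay below both wild-type libraries and above both vector libraries. On the log2(FPKM + 1) scale, used for every difference below, Q311E minus wild type was -1.95 ± 0.22 (SE, limma adjusted p = 0.031). The form and the amount of MB21D2 RNA therefore differ together between the lines, and their effects cannot be told apart. Nor does FPKM separate transcripts with and without the substitution, or introduced from endogenous RNA. The coding sequence has 491 codons, and the glutamine codon that Q311E exchanges lies in exon 2 of 2, at chr3:192798929-192798931 on the minus strand (GRCh38, GENCODE 29). The reference coding stretch chr3:192798899-192798961 is shown to place it, 5′ to 3′ in the direction of transcription, with that codon in capitals.
MB21D2: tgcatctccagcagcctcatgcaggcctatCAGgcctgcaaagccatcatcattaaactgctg

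Among its relatives, TMEM102 rose (6.64 and 8.45 FPKM in Q311E, 3.79 and 3.06 in the wild type, 0.95 ± 0.16, adjusted p = 0.046). CGAS itself stood at 20.8 and 14.8 FPKM in Q311E and at 32.2 and 27.4 in the wild type. Its groups did not overlap, but the difference of -0.73 ± 0.20 was not called (adjusted p = 0.083). No other member of the 8 tested Mab-21 genes was called.

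Across all tested genes, 980 were called at a Benjamini-Hochberg adjusted p under 0.05 in limma, 8.51% of those tested. Of these, 723 rose (6.28%) and 257 fell (2.23%), and 367 of the rises and 48 of the falls were at least 2-fold on this scale. Both Q311E libraries lay above both wild-type libraries for 4558 genes (39.6%) and below them for 3526 (30.6%). The median difference over all tested genes was 0.05. Of the 723 genes that rose, 578 had a vector level between those of the Q311E and wild-type lines, 64 had a vector level above both and 81 below both. For the 257 that fell, the vector lay between for 173, above both for 68 and below both for 16. The count rests on both wild-type libraries: without wild type A or without wild type B, 0 genes were called by limma, with 1457 and 1410 at an unadjusted p under 0.05. With no filter on low values 0 of 28653 genes were called as well, with 6100 at an unadjusted p under 0.05. When libraries were scaled to the same median, the split turned to 574 higher and 681 lower. That scaling moved the median of all genes by -0.105.

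**Figure D1:**
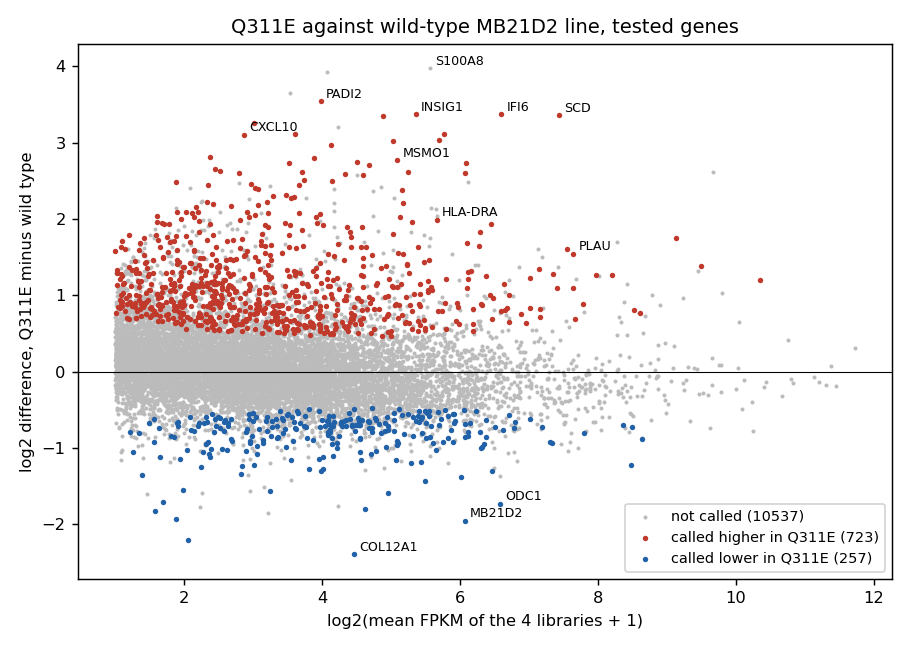
Each point is 1 of the 11517 tested genes, with its mean level, log2(mean FPKM of the 4 libraries + 1), on the x axis and the Q311E minus wild-type log2 difference on the y axis. Called genes are in red (723 higher) and blue (257 lower), grey points were not called, and 12 genes named in the text are marked. S100A8 is high on the y axis but was not called.

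Among called genes the largest rise was that of PADI2, an enzyme that converts arginine in proteins to citrulline. It stood at 18.9 and 37.4 FPKM in Q311E and at 1.39 and 1.37 in the wild type, with 2.3 and 3.57 in the vector libraries (3.54 ± 0.34, adjusted p = 0.026). Close behind were INSIG1, SCD and IFI6, described below with their pathways. LOXL4, a secreted amine oxidase that crosslinks collagen and elastin, rose from 3.85 and 4.39 FPKM to 38.4 and 67.7 (3.35 ± 0.29, adjusted p = 0.024). For this gene the vector libraries were lower still, at 1.6 and 2.48 FPKM. FGFBP1, a carrier protein that releases stored fibroblast growth factors, stood at 92.0 and 89.9 FPKM in Q311E against 10.3 and 10.2 in the wild type (3.03 ± 0.08, adjusted p = 0.015). Its libraries agreed closely within each line, whereas PADI2 and LOXL4 were higher in Q311E B than in A. The other genes among the 12 largest rises were CLIC3, GDF15, C15orf48, CXCL10, TNFSF10 and IGFL2-AS1. IGFL2-AS1 is an antisense gene, and whether the counting used strand is not given in the sources used here.

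Falls were smaller. The largest was that of COL12A1, a collagen that sits on the surface of collagen fibrils, at 7.3 and 4.87 FPKM in Q311E and 33.8 and 37.8 in the wild type (-2.40 ± 0.20, adjusted p = 0.021). ITGBL1, a secreted protein with integrin-like repeats, stood at 0.624 and 0.337 FPKM against 5.44 and 6.21, and the vector line was as low as Q311E at 0.362 and 0.4. GAL, which encodes the neuropeptide galanin, fell from 38.5 and 35.8 FPKM to 12.6 and 7.83 (-1.80 ± 0.23, adjusted p = 0.035). FLNC, an actin crosslinker, ANO1, a calcium-activated chloride channel, and SCG2, a granin of secretory granules, also fell by more than 1.5 on the log2 scale. ADISSP had even values within each line: 23.2 and 23.3 FPKM in Q311E, 64.7 and 64.4 in the wild type and 70.2 and 66.7 in the vector line. Y_RNA and MT-TV are short RNAs with many copies or nearby mitochondrial reads, so their values in the list are uncertain. They also rest on few reads: Y_RNA had 1 in each Q311E library and 9 and 10 in the wild type. MT-TV had 0 and 1 reads in Q311E and 6 and 5 in the wild type.

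**Figure D2:**
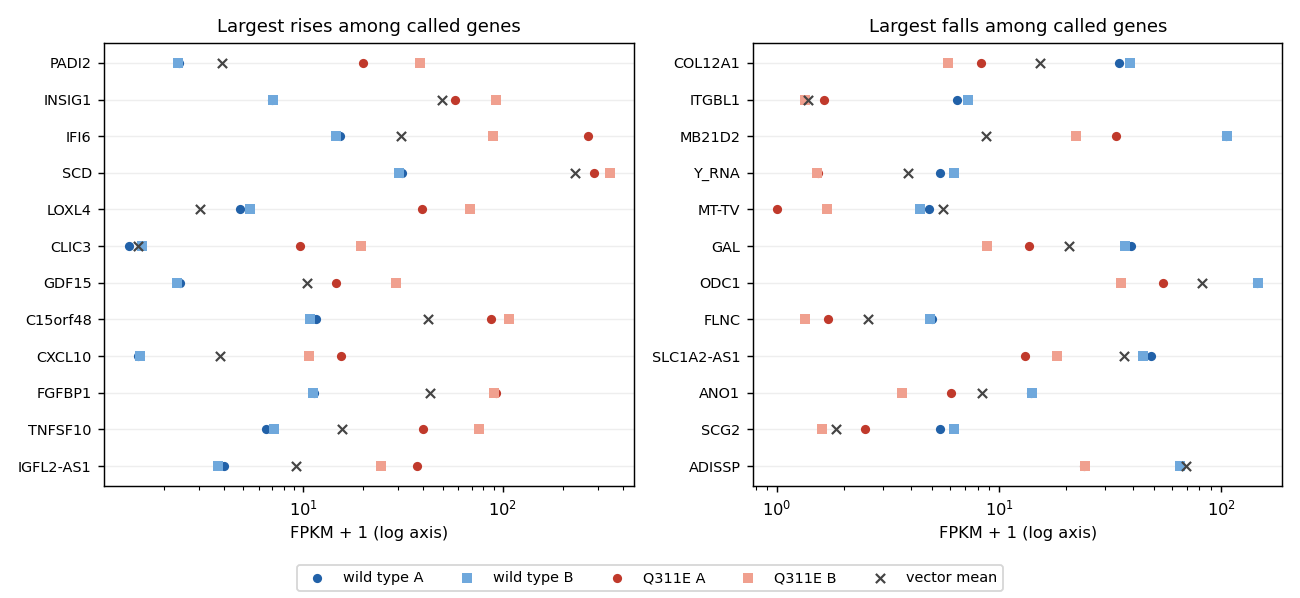
FPKM + 1 on a log axis for 12 rises and 12 falls, the largest of the called genes without overlap between groups, with 1 marker for each Q311E and wild-type library and a cross for the vector mean. Wild-type libraries nearly coincide for most genes, and the Q311E markers of PADI2, IFI6 and CLIC3 are spread; SCD and INSIG1 have a vector mean near the Q311E level.

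Most enzymes of cholesterol synthesis rose. Of 22 enzymes tested, 18 rose, 1 fell and 3 were not called, against 6.28% higher and 2.23% lower of all tested genes. The median difference was 1.54, at 1.60 for Q311E A and 1.38 for Q311E B. The summed level of the 22 genes was 952 and 835 FPKM in the Q311E libraries and 316 in each wild-type library. The vector level lay between the lines for 21 of them.

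Early in the pathway, HMGCS1, which makes HMG-CoA, stood at 54.0 and 27.3 FPKM in Q311E and 5.58 and 5.62 in the wild type (2.58 ± 0.34, adjusted p = 0.035). It was higher in Q311E A than in B, and both Q311E libraries exceeded both wild-type libraries. The mevalonate kinase MVK, the decarboxylase MVD, the isomerase IDI1 and the farnesyl diphosphate synthase FDPS rose as well, by 1.56, 1.90, 1.85 and 1.41 on the log2 scale. PMVK, the kinase between MVK and MVD, had the smallest difference, at 12.8 and 12.2 FPKM against 9.98 and 11.7 (0.19 ± 0.11, adjusted p = 0.28).

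In the squalene and sterol steps, FDFT1, which joins farnesyl units into squalene, stood at 142 and 133 FPKM in Q311E and 35.5 and 34.8 in the wild type (1.94 ± 0.09, adjusted p = 0.015). The squalene epoxidase SQLE stood at 40.3 and 29.5 FPKM against 10.8 and 10.1 (1.63 ± 0.17, adjusted p = 0.029). LSS, which closes the ring to lanosterol, stood at 62.3 and 61.7 FPKM against 15.4 and 14.9 (1.96 ± 0.08, adjusted p = 0.015). MSMO1, which removes methyl groups from the sterol ring, had the largest difference of the list, at 59.2 and 57.5 FPKM against 8.09 and 7.35 (2.77 ± 0.09, adjusted p = 0.015). DHCR7, which reduces the sterol ring late in the pathway, stood at 114 and 118 FPKM against 36.7 and 36.2. CYP51A1, the lanosterol demethylase, lay above the wild type in both Q311E libraries at 4.08 and 2.66 FPKM against 1.69 and 1.24, but was not called (adjusted p = 0.080). The only fall was LBR, a protein of the inner nuclear membrane with sterol reductase activity, at 22.2 and 19 FPKM against 33.2 and 31.7 (-0.63 ± 0.11, adjusted p = 0.048). TM7SF2, the other sterol reductase for the same step, rose from 1.43 and 1.29 FPKM to 9.53 and 15.0 (2.46 ± 0.23, adjusted p = 0.026).

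Of 14 genes of sterol uptake and SREBP control, 6 rose, against 6.28% of all tested genes, and none of the other 8 was called. INSIG1, which holds SREBP in the endoplasmic reticulum when sterol is plentiful, stood at 56.4 and 91.5 FPKM in Q311E, 6.02 and 6.10 in the wild type and 43.2 and 54.4 in the vector line (3.37 ± 0.25, adjusted p = 0.020). STARD4, which carries cholesterol between membranes, stood at 18.4 and 22.5 FPKM against 3.08 and 2.81 (2.44 ± 0.13, adjusted p = 0.015). Both factors themselves rose: SREBF2 stood at 59.6 and 65.0 FPKM against 19.8 and 19.2, and SREBF1 at 36.9 and 49.0 against 15.8 and 15.6. For SREBF1 the vector libraries were level with or above Q311E, at 49.4 and 65.2 FPKM. SCAP, which escorts SREBP to the Golgi, and the protease gene MBTPS2 differed by -0.03 ± 0.09 and 0.00 ± 0.13 and were not called. Among 6 tested LXR targets and cholesterol efflux genes, which respond to high sterol, none was called by limma or by limma-voom, 2 had an unadjusted p under 0.05, and their median difference was 0.26.

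Fatty acid genes rose in part: 9 of 20 rose, against 6.28% of all tested genes, none fell, and the median was 0.58. SCD, which puts the double bond into stearate, stood at 287 and 343 FPKM in Q311E, 30.2 and 29.3 in the wild type and 205 and 254 in the vector line (3.36 ± 0.13, adjusted p = 0.015). FASN, the fatty acid synthase, stood at 174 and 187 FPKM against 76.3 and 76.9 (1.23 ± 0.10, adjusted p = 0.020). ACSS2, which makes acetyl-CoA from acetate, rose by 1.79, and SLC25A1, which exports citrate from mitochondria, by 1.21. ACLY, which splits that citrate, and ACACA, which commits acetyl-CoA to fatty acids, were not called, at 0.49 ± 0.10 (adjusted p = 0.060) and 0.45 ± 0.13 (adjusted p = 0.095). The elongases ELOVL1, ELOVL5, ELOVL6 and ELOVL7 ranged from -0.08 to 0.29 and were not called.

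**Figure D3:**
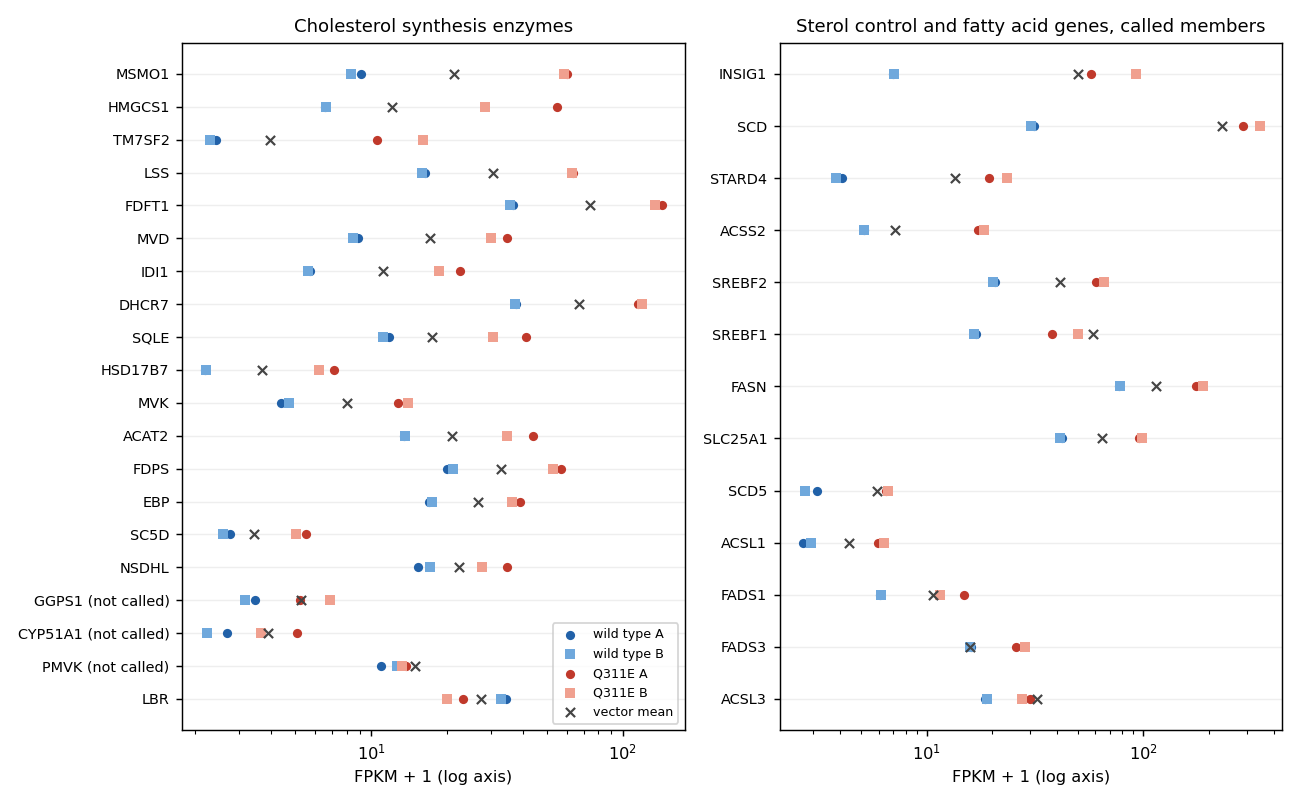
FPKM + 1 on a log axis for 20 of the 22 cholesterol synthesis enzymes and for called genes of sterol control and fatty acid synthesis, 1 marker for each Q311E and wild-type library and a cross for the vector mean. The Q311E markers lie to the right of the wild-type ones for every gene shown but LBR, and the vector mean lies between them for 19 of these 20 enzymes.

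The 250 bases before the start site were searched on both strands for TCACNCCAC, a form of the sterol regulatory element, in the RefSeq promoters of GRCh38.p14. It was found in 0.875% of 27305 promoters, in 0 of the 17 cholesterol synthesis promoters in the table, in 1 of 11 of the uptake and control list and in 1 of 19 of the fatty acid list. The match in the control list is in SREBF2, at chr22:41832937-41833015 on the plus strand, and is printed to show the letters searched, in capitals.
SREBF2: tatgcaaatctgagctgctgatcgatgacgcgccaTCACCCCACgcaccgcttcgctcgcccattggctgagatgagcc

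Interferon-stimulated genes were higher in both Q311E libraries without exception among the 40 tested, where 39.6% of all tested genes lay so. Of the 40, 16 rose and 24 were not called, and none was lower. Their median difference was 1.56, with 2.13 in Q311E A and 1.16 in Q311E B. Summed, they reached 2645 and 2095 FPKM in the Q311E libraries and 837 and 847 in the wild-type libraries. The vector line lay between for 37 of the 40. The number called depends on the fit: it was 13 with TPM scaling or quantile normalization, 32 when all 6 libraries shared the fit, 33 with array weights and 0 with no filter or without either wild-type library.

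IFI6, a mitochondrial and endoplasmic reticulum protein induced by type I interferon, stood at 267 and 87.9 FPKM in Q311E, 14.3 and 13.6 in the wild type and 29.5 and 30.1 in the vector line (3.37 ± 0.55, adjusted p = 0.045). The oligoadenylate synthetases, which make the messenger that activates RNase L, followed the same order of libraries. OAS1 stood at 30.2 and 13.4 FPKM against 2.40 and 2.54 (2.61 ± 0.39, adjusted p = 0.040), and OAS2 at 34.2 and 15.5 against 2.28 and 2.69 (2.79 ± 0.39, adjusted p = 0.037). OAS3 stood at 68.6 and 26.5 FPKM against 18.6 and 17.8 and was not called (1.19 ± 0.47, adjusted p = 0.15). IFIT1, which binds RNA that lacks a host cap, stood at 31.8 and 12.4 FPKM against 2.56 and 2.81 (2.51 ± 0.45, adjusted p = 0.049). Its neighbour in function IFIT3 stood at 114 and 49.5 against 18.3 and 17.1 without being called (2.03 ± 0.42, adjusted p = 0.058). In all of these Q311E A was more than 2-fold above Q311E B.

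The antiviral GTPase gene MX1 stood at 43.9 and 13.3 FPKM in Q311E and 6.45 and 6.46 in the wild type (1.76 ± 0.57, adjusted p = 0.11). ISG15, a ubiquitin-like modifier, stood at 314 and 125 FPKM against 68.2 and 70.2 (1.5 ± 0.46, adjusted p = 0.10). Neither was called although both Q311E libraries were above both wild-type libraries.

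Other members did not have this order or were more even. TRIM22, an antiviral TRIM protein, stood at 14.1 and 12.6 FPKM against 2.66 and 2.88 (1.92 ± 0.11, adjusted p = 0.015). BST2, or tetherin, which holds budding virus at the cell surface, stood at 349 and 358 FPKM in Q311E, 145 and 147 in the wild type and 310.6 and 345 in the vector line (1.27 ± 0.10, adjusted p = 0.020). The membrane proteins IFITM1 and IFITM3, which block viral entry, were higher in Q311E B than in A: IFITM1 stood at 99.0 and 130 FPKM against 18.2 and 17.6 (2.60 ± 0.16, adjusted p = 0.017). PARP12 was the member nearest to no difference, at 10.4 FPKM in both Q311E libraries and 9.84 and 8.82 in the wild type.

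The promoters of these genes often hold the interferon-stimulated response element, searched on both strands as GAAA, any 2 bases and GAAA again. It was in 20 of the 32 interferon-stimulated promoters found in the table (62.5%), and in 9 of the 11 that belong to called genes, against 2.42% of the promoters of tested genes and 3.07% of all 27305 promoters. Of 16 HLA class I presentation promoters 7 held it (43.8%), and 5 of the 14 that belong to called genes did (35.7%). A match describes the letters only. Stretches upstream of 5 called genes from these lists are printed, each on the strand of its gene with every match in capitals, to show how the matches are placed. They are IFI6 at chr1:27672241-27672320 (minus), IFITM1 at chr11:313965-314039 (plus), RTP4 at chr3:187368332-187368384 (plus), BST2 at chr19:17405710-17405789 (minus) and HLA-F at chr6:29723243-29723322 (plus). BST2 holds overlapping matches, and the match in HLA-F is on the opposite strand.
IFI6: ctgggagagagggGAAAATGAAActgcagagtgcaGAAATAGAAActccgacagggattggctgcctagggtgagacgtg
IFITM1: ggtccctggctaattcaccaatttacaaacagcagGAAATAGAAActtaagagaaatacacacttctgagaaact
RTP4: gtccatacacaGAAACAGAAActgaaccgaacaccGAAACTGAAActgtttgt
BST2: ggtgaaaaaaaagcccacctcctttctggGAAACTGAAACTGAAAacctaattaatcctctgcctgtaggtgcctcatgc
HLA-F: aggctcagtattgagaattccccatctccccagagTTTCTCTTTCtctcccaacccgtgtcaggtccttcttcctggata

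**Figure D4:**
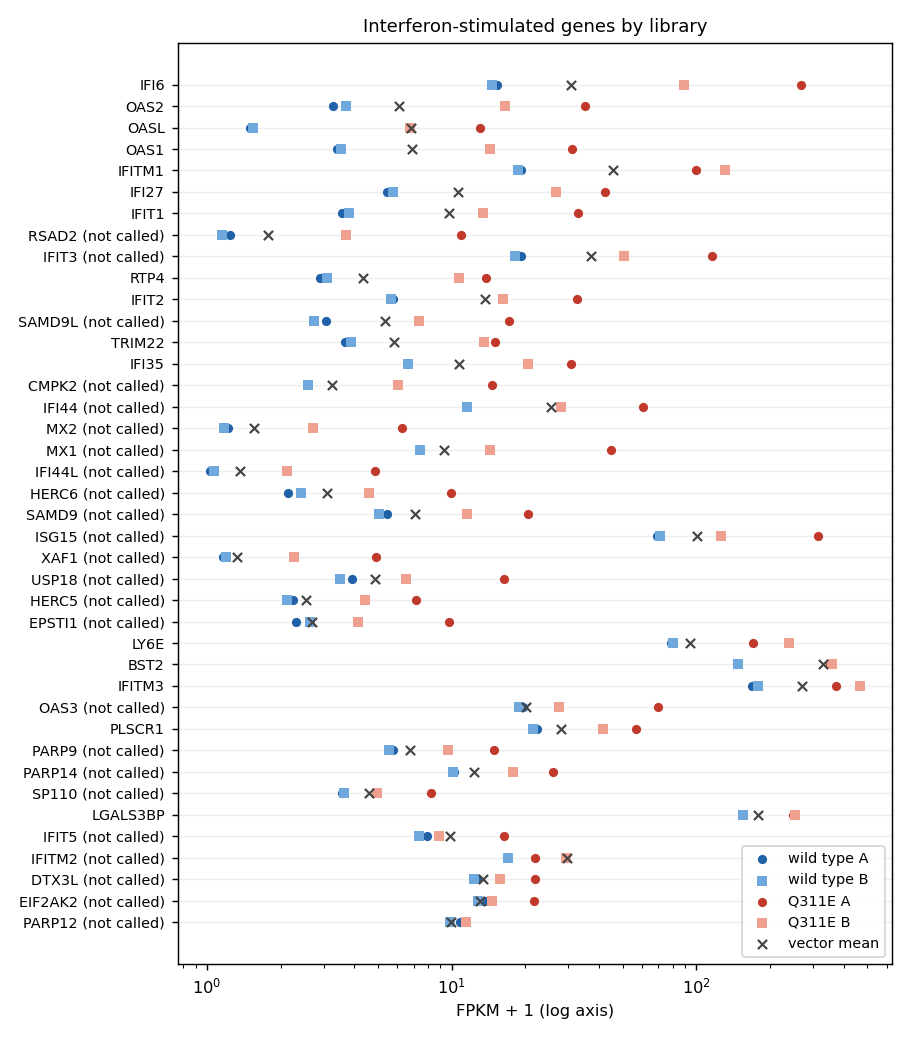
FPKM + 1 on a log axis for the 40 tested interferon-stimulated genes, ordered by their log2 difference, 1 marker for each Q311E and wild-type library and a cross for the vector mean. Q311E A lies to the right of Q311E B for 33 of the 40, with IFITM1, IFITM3, LY6E and IFITM2 among those in the other order, and genes marked as not called include MX1 and ISG15.

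Of 18 tested interferon receptors, kinases, STATs and IRFs, which act above these targets, 2 rose (6.28% of all tested genes did) and 16 were not called. Both Q311E libraries were above both wild-type libraries for 16 of the 18, and for 39.6% of all genes. The median of the list was 0.45. STAT2, a partner in the complex that binds the response element, stood at 26.9 and 28.3 FPKM against 7.89 and 8.13 (1.67 ± 0.09, adjusted p = 0.015). IRF7, which amplifies interferon production, stood at 16.9 and 8.89 FPKM against 3.20 and 3.30 and was not called (1.65 ± 0.30, adjusted p = 0.051).

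Of 16 tested sensors of cytosolic nucleic acid and their adaptors, 2 rose and none fell, where 6.28% of all tested genes rose. DHX58, an RNA helicase of the RIG-I family, stood at 7.46 and 4.76 FPKM against 0.642 and 0.797 (2.02 ± 0.22, adjusted p = 0.029). AIM2, a DNA sensor that forms an inflammasome, stood at 4.64 and 4.37 FPKM against 0.866 and 1.23, with vector libraries at 4.29 and 3.85. STING1, the adaptor downstream of cGAS, stood at 1.86 and 3.70 FPKM against 0.457 and 0.625 and was not called (1.25 ± 0.28, adjusted p = 0.064). The kinase TBK1 and the adaptor MAVS differed by 0.08 ± 0.11 and -0.12 ± 0.16, within the spread of the libraries.

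In the list of HLA class I antigen presentation 16 of 20 genes rose and none fell, against 6.28% and 2.23% of all tested genes, with a median of 0.86 that was alike in Q311E A (0.89) and B (0.86). HLA-B, which presents peptide to CD8 T cells, stood at 297 and 265 FPKM against 91.7 and 91.2 (1.61 ± 0.11, adjusted p = 0.017). HLA-F, a class I gene of limited expression, had the largest difference of the list, at 14.4 and 13.6 FPKM against 2.50 and 2.61 (2.08 ± 0.09, adjusted p = 0.015). The light chain B2M stood at 256 and 287 FPKM against 124 and 129, and the peptide editor TAPBP at 104 and 124 against 56.5 and 56.6. All 3 immunoproteasome subunits PSMB8, PSMB9 and PSMB10 rose, by 0.87, 1.16 and 1.2. For PSMB8 and PSMB9 the vector line was about as high as Q311E, at 45.9 and 45.8 FPKM for PSMB8. HLA genes are alike in sequence, and how shared reads were assigned is not given in the sources used here.

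For class II, 5 of 9 tested genes rose, against 6.28% of all tested genes, and none fell. The count was 3 with quantile normalization and with a mean FPKM of at least 5. HLA-DRA, the constant chain of HLA-DR, stood at 58.1 and 103 FPKM in Q311E, 18.1 and 19.4 in the wild type and 69.5 and 77.9 in the vector line (1.99 ± 0.29, adjusted p = 0.039). HLA-DMA, which loads peptide, stood at 6.30 and 10.6 FPKM against 1.83 and 1.80 (1.71 ± 0.25, adjusted p = 0.038). The lysosomal protease CTSS, which trims the invariant chain, stood at 16 and 17.1 FPKM against 3.80 and 3.32 (1.95 ± 0.10, adjusted p = 0.015). HLA-DRB1 stood at 16.5 and 41.6 FPKM against 4.35 and 5.46 and was not called (2.21 ± 0.46, adjusted p = 0.058). Here the order of the Q311E libraries was the reverse of that of IFI6 and the OAS genes, with a list median of 1.36 in A and 2.05 in B. The leukocyte marker CD14, which was not called, had the same order, at 4.93 and 18.8 FPKM in Q311E and 2.40 and 2.56 in the wild type (1.64 ± 0.60, adjusted p = 0.14), while PTPRC was listed at 0 in all 4 libraries.

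Of 25 tested chemokines and cytokines, 10 rose and none fell, where 6.28% of all tested genes rose, with a median of 1.15 (0.81 in Q311E A and 1.51 in B). CXCL10 and CXCL11, ligands of CXCR3 induced by interferon, stood at 14.5 and 9.72 FPKM against 0.485 and 0.519, and at 9.70 and 6.50 against 0.253 and 0.295. Their differences were 3.10 ± 0.21 (adjusted p = 0.017) and 2.81 ± 0.20 (adjusted p = 0.019). CCL2, which attracts monocytes, was abundant throughout: 922 and 1174 FPKM in Q311E, 398 and 397 in the wild type, 912 and 1086 in the vector line (1.39 ± 0.17, adjusted p = 0.033). IL1B stood at 46.2 and 71.7 FPKM against 10.4 and 10.0, and IL1A at 39.4 and 90.0 against 9.85 and 7.99, with vector levels of 70.7 and 81.8 for IL1B and 114 and 128 for IL1A. TNFSF10, the death ligand TRAIL, stood at 39.1 and 75.2 FPKM against 5.54 and 6.12 (3.02 ± 0.33, adjusted p = 0.029). CXCL14 stood at 34.7 and 38.4 FPKM against 11.2 and 11, and was nearly absent from the vector line at 0.377 and 0.442. IL24, of the IL10 family, stood at 3.40 and 2.43 FPKM in Q311E against 0.133 and 0.284 in the wild type (1.69 ± 0.18, adjusted p = 0.029), with 0.251 and 0.367 in the vector line. Of 16 NF-kB subunits and feedback genes 1 was called, near the 6.28% of all tested genes: TNIP1, a feedback inhibitor, differed by 0.55 ± 0.09 (adjusted p = 0.042) and was not called with TPM scaling.

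Genes that build ribosomes were lower. In the list of ribosome biogenesis and MYC targets, 15 of 32 tested genes fell and none rose, where 2.23% of all genes fell. Both Q311E libraries lay below both wild-type libraries for all 32, and for 30.6% of all tested genes. The median was -0.77, with -0.63 in Q311E A and -0.97 in Q311E B. The sum over the list was 1260 and 1011 FPKM in Q311E against 2157 and 2167 in the wild type. With TPM scaling 7 of the 32 fell and with median scaling 26, while the median stayed negative in both.

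NPM1, the abundant nucleolar chaperone, stood at 294 and 264 FPKM in Q311E against 520 and 511 in the wild type (-0.89 ± 0.12, adjusted p = 0.037). NOP56, a core protein of the snoRNPs that methylate ribosomal RNA, stood at 41.9 and 28.7 FPKM against 92.3 and 92.1 (-1.38 ± 0.20, adjusted p = 0.038). BOP1, needed for the large subunit, stood at 28.1 and 22.8 FPKM against 59.6 and 58.2 (-1.19 ± 0.13, adjusted p = 0.029). The polyamine genes moved the same way: ODC1, the rate-limiting decarboxylase, stood at 53.6 and 34.4 FPKM against 144 and 146, and the spermidine synthase SRM at 58.4 and 42.4 against 126 and 123. Their differences were -1.74 ± 0.23 (adjusted p = 0.036) and -1.31 ± 0.18 (adjusted p = 0.037). MYC itself stood at 33.1 and 29.5 FPKM against 45.2 and 44.5, below in both libraries but not called (-0.51 ± 0.10, adjusted p = 0.054). The E-box CACGTG was in 4 of 25 promoters of the list (16%), in 9.07% of the promoters of tested genes and in 6.49% of all promoters. By contrast, none of the 40 cytosolic ribosomal protein genes was called by limma or limma-voom, 0 had an unadjusted p under 0.05, and their median stood at -0.28 for Q311E A and 0.13 for Q311E B. None of 36 nuclear genes of oxidative phosphorylation was called by either tool, and 6 had an unadjusted p under 0.05.

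Cell cycle genes lay low in both Q311E libraries with few calls. Of 32 mitosis and G2/M genes, 30 were below both wild-type libraries (30.6% of all genes were), with a median of -0.60 (-0.35 in A and -0.82 in B). In this list 2 fell, where 2.23% of all tested genes did, or 9 with median scaling and 0 with TPM scaling. MAD2L1, of the spindle checkpoint, stood at 7.79 and 7.19 FPKM against 11.9 and 11.8 (-0.60 ± 0.09, adjusted p = 0.040). CDC25B, the phosphatase that starts mitotic entry, stood at 26.6 and 23 FPKM against 37.9 and 40.1 (-0.64 ± 0.11, adjusted p = 0.047). Of 36 S-phase and replication genes, 28 lay below both wild-type libraries and 1 fell, a share near the 2.23% of all tested genes. It was GINS1 of the replicative helicase, at 9.04 and 7.30 FPKM against 14.7 and 13.8. GINS1 and CDC25B both start before 30 Mb on chromosome 20, in a stretch with many falls that is described below. PCNA, the replication clamp, stood at 214 and 175 FPKM against 331 in both wild-type libraries and was not called (-0.77 ± 0.14, adjusted p = 0.051). MKI67, a marker of cycling cells, stood at 41.9 and 22.4 FPKM against 50.1 and 59.1 (-0.81 ± 0.32, adjusted p = 0.15). In bulk RNA, fewer cycling cells and less of these RNAs in each cell cannot be told apart. CDKN1A, the p53 target that inhibits cyclin-dependent kinases, rose from 2 and 2.35 FPKM to 11.4 and 12.8 (2.05 ± 0.12, adjusted p = 0.015). GDF15, a stress-induced member of the TGF-beta family, stood at 13.7 and 28.1 FPKM against 1.43 and 1.35. These 2 were the p53 targets called among 26, a share near the 8.51% of all tested genes.

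Of 11 tested histone genes, 7 rose, against 6.28% of all tested genes, none fell, and the median was 1.07. The count was 4 with limma-voom and with quantile normalization. H2BC12 stood at 105 and 98.4 FPKM in Q311E, 39.5 and 40.5 in the wild type and 25 and 23.4 in the vector line (1.32 ± 0.09, adjusted p = 0.017). H2BC21 stood at 5.44 and 11.6 FPKM against 0.46 and 0.406 (2.65 ± 0.35, adjusted p = 0.035), and the linker H1-2 at 37.5 and 73.4 against 13.6 and 11 (2.02 ± 0.35, adjusted p = 0.047). Histone genes are near-identical copies of each other, so the split of reads among them is uncertain.

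Among 22 endoplasmic reticulum chaperones and genes of the unfolded protein response, 5 rose, against 6.28% of all tested genes, and none fell. The count was 3 with TPM scaling and with quantile normalization. HERPUD1, of the degradation machinery of that membrane, stood at 13.4 and 11.5 FPKM against 4.96 and 4.42 (1.24 ± 0.12, adjusted p = 0.026), and MANF at 46.9 and 44.0 against 21.2 and 20.03 (1.10 ± 0.09, adjusted p = 0.021). XBP1, the factor activated by splicing in this response, stood at 28.6 and 24.5 FPKM against 15.2 and 15.8, below the vector line at 36.8 and 35.6. HSPA5, the chaperone BiP, stood at 492 and 373 FPKM against 228 in both wild-type libraries and was not called (0.91 ± 0.17, adjusted p = 0.053). Of 26 ATF4 and amino acid response genes, DDIT3, which encodes CHOP, and the amino acid transporter SLC38A2 rose by 0.91 and 0.64, whereas the list median was -0.22. No other member was called, and this share is near the 6.28% of all tested genes. SRXN1, which repairs oxidised peroxiredoxin, was the only NRF2 target of 19 called, and it fell from 10.5 and 10.1 FPKM to 4.32 and 3.38. Of all tested genes 2.23% fell, and SRXN1 too starts before 30 Mb on chromosome 20.

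Adhesion and matrix genes split. Of 11 integrins, ITGB8, ITGB6, ITGA2 and ITGAV rose and none fell, where 6.28% of all tested genes rose. ITGB6, the epithelial partner of the alpha v chain, stood at 31.3 and 33.4 FPKM against 12.9 in both wild-type libraries (1.26 ± 0.09, adjusted p = 0.017). ITGB8, another such partner, stood at 12 and 11.7 FPKM against 4.23 and 4.19 (1.30 ± 0.09, adjusted p = 0.017). ITGAV itself, the alpha v chain, stood at 44.5 and 36.3 FPKM against 20.1 and 19.5 (0.98 ± 0.13, adjusted p = 0.035). The median over all 11 was only 0.07 and turned to -0.04 with median scaling and to -0.12 without Q311E A. Of 16 proteases, 4 rose, against 6.28% of all tested genes, and 2 with quantile normalization. MMP14, a membrane-bound collagenase, stood at 96.3 and 111 FPKM against 31.2 and 32.0 (1.68 ± 0.11, adjusted p = 0.017). PLAU, the urokinase that activates plasminogen, stood at 302 and 289 against 98.5 and 103 (1.54 ± 0.10, adjusted p = 0.017). Of 24 collagens and collagen-modifying enzymes, 4 rose, among them LOXL4 and the lysyl hydroxylase PLOD2, and COL12A1 fell. Of all tested genes 6.28% rose and 2.23% fell. Fibronectin (FN1) fell as well, from 29.5 and 31.4 FPKM to 13.7 and 14.6 (-1.06 ± 0.09, adjusted p = 0.024), while SPARC, a collagen-binding matrix protein, rose from 153 and 155 to 297 and 272 (0.88 ± 0.11, adjusted p = 0.033).

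Of 7 tested basal and stress keratins, 3 rose and KRT14 fell, where 6.28% of all tested genes rose and 2.23% fell. KRT17, a keratin of wounded and basal epithelium, stood at 118.5 and 122.5 FPKM in Q311E, 33.3 and 33.4 in the wild type and 75.1 and 79.3 in the vector line (1.82 ± 0.09, adjusted p = 0.015). KRT6A stood at 16.7 and 15.0 FPKM against 7.90 and 9.49, and both lines were far below the vector line at 109 and 104. KRT14, the partner of KRT5 in basal cells, fell from 2.08 and 2.35 FPKM to 0.771 and 0.902 (-0.81 ± 0.13, adjusted p = 0.042), but the vector libraries held 762 and 697. Differences in KRT14 between the Q311E and wild-type lines are thus small beside the distance of both from the vector line. Of 11 tested genes of the cornified envelope and keratinocyte differentiation, CALML5, KLK10 and CNFN rose, against 6.28% of all tested genes. All of them rose from about 1 FPKM or less. The antimicrobial ribonuclease RNASE7 rose from 5.57 and 5.12 FPKM to 19.9 and 17.9 (1.65 ± 0.10, adjusted p = 0.017). Of 14 tight junction genes, CLDN7 and CRB3 rose, where 6.28% of all tested genes rose. CLDN7 went from 4.17 and 4.84 FPKM to 12.9 and 20.01. In this list 1 gene was called with TPM scaling and 0 with quantile normalization. Of the mucins and glandular markers, MUC16, MUC20 and AGR2 rose among 7 tested, against 6.28% of all tested genes. MUC1 stood at 15.2 and 62.7 FPKM against 4.47 and 4.32 without being called (2.57 ± 0.68, adjusted p = 0.081).

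Several lists differed strongly between the Q311E libraries. At least 2-fold differences between Q311E A and B were found for 402 tested genes (3.49%), 262 of them higher in B, against 35 genes (0.304%) between the wild-type libraries. Of these 402, 9 were among the 980 called, where 8.51% of all tested genes were called. A wide gap between A and B raises the SE of a gene, so few calls here follow from the test itself. Conversely, 86 genes were not called although both Q311E libraries were at least 2-fold above the wild-type mean, and 5 although both were at least 2-fold below. S100A8, which binds calcium and is made by neutrophils and inflamed epithelia, stood at 10.65 FPKM in Q311E A and 171 in Q311E B, with 1.92 and 1.79 in the wild type and 151 and 262 in the vector line (3.97 ± 1.33, adjusted p = 0.12). Its partner S100A9 stood at 287 and 2671 FPKM in Q311E and 139 and 146 in the wild type. PIGR, which carries IgA across epithelium, stood at 5.85 and 56.9 FPKM against 0.421 and 0.204, and the chemokine CCL20 at 19.75 and 154 against 12.3 and 11.7. Each of these was above the wild type in both libraries, far more so in B. ID1, a BMP target, was different in sign: 5.37 FPKM in Q311E A and 59.0 in B, with 24.5 and 24.95 in the wild type. ANKRD1, a YAP target, was above the wild type in A at 40.8 FPKM and below it in B at 6.12. SFRP1, a secreted WNT antagonist, had no reads in either wild-type library and stood at 6.39 and 0.264 FPKM in Q311E. The mean of these Q311E values, carried mainly by Q311E A, was 232-fold above a floor of 3 reads over the wild-type group. SFRP1 was not called.

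**Figure D5:**
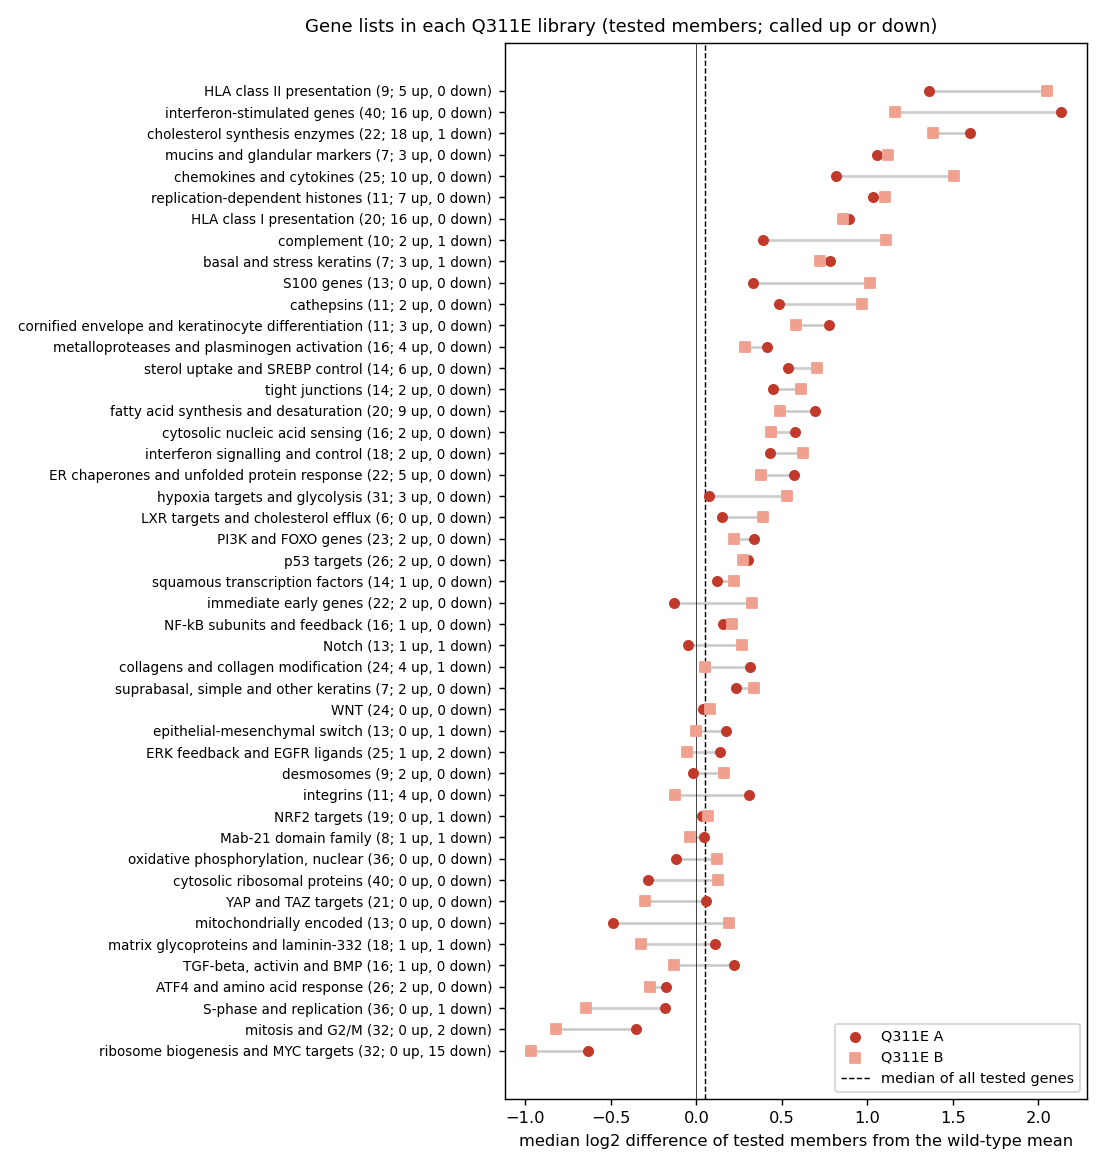
Median log2 difference of the tested members of each gene list from the wild-type mean, in Q311E A (circles) and Q311E B (squares), with the number tested and called beside each name and the median of all tested genes, 0.05, as a dashed line. Both libraries lie on the same side for cholesterol, interferon, HLA, histone and ribosome biogenesis lists, and on opposite sides of 0 for mitochondrially encoded, ribosomal protein, immediate early and integrin genes.

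By position, falls were unevenly spread. On chromosome 20 of GRCh38, 28 of the 107 tested genes that start before 30 Mb fell (26.2%, where 2.23% of all tested genes fell) and 1 rose, against 2 that fell and 8 that rose among the 213 after 30 Mb. The median before 30 Mb was -0.37, at -0.376 in Q311E A and -0.391 in Q311E B, and the vector minus wild-type median for the same genes was 0.19. ADISSP, named above for its even values, starts before 30 Mb on this chromosome. So do GINS1, CDC25B and SRXN1, named above as called members of the replication, mitosis and NRF2 lists. The boundary was chosen after these values were seen. On chromosome 6 from 25 to 34 Mb, which holds the HLA genes and a histone cluster, 30 of 148 tested genes rose (20.3%, against 6.28% of all tested genes) and 1 fell, with a median of 0.32.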

How the data were processed

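The deposited table gives FPKM values of 6 CAL27 libraries, and the 4 of the Q311E and wild-type lines were fitted. Per the labels, QIAGEN material served for RNA extraction and library preparation was by standard Illumina protocols. CASAVA, mm8 and mm9 are named, with no role, per the submitters' processing notes, while the IDs are human Ensembl genes. The aligner, counter, annotation and strand setting were not given in the sources used here. Names matched 29993 of the 30178 IDs, and positions are from GENCODE 29. Whole reads, within a tolerance of 0.001, were recovered for 30149 genes (99.9%), and for 11513 of the 11517 tested (99.97%). The GENCODE 29 length gave whole reads for 22361 genes. For the others a length that made the reads whole was searched for, so success there is partly built in.

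Genes whose FPKM averaged at least 1 in the 4 libraries were tested on log2(FPKM + 1), pseudocount 1, by limma 3.58.1 (R 4.3.3), using a variance prior with a trend; 2 residual degrees of freedom remained. This scale understates the change of low genes. Errors of differences are SEs. A gene was called when its two-sided p, adjusted by Benjamini-Hochberg over all tested genes, was under 0.05. The fit was tested on simulated data.

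The named genes are MB21D2, 12 rises and 12 falls, the largest of the called genes without overlap between groups, up to 4 called members of each list by smallest p, and 2 uncalled members where a list had none. Other genes the text names were chosen after their values were seen. The members and lists were chosen with earlier results of these data known. Same-letter libraries did not deviate together (correlation -0.00505), so letters were not used as pairs. Alternatives covered the pseudocount, filter, scaling, variance prior, array weights, a replicate block, limma-voom on recovered reads and leaving out each library. Figures used matplotlib 3.10.9. Some genes are counted in the lists but not reported here.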

Additional observations from a re-analysis of the deposited data

How the results depend on the processing

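The number of called genes, 980, was 1136 with a pseudocount of 0.1, 735 with a mean FPKM of at least 5, 763 with TPM scaling, 1255 with median scaling, 638 with quantile normalization, 3181 with all 6 libraries in the fit, 1525 with array weights, 886 with no trend in the variance prior, 892 with a robust variance prior and 1038 with limma-voom on recovered reads. With no filter on low values it was 0 of 28653 genes tested, with 287 at an adjusted p under 0.1. Leaving out each library in turn gave from 0, with either wild-type library left out, to 7682 for Q311E A, and 5816 for Q311E B; the lone library is then assumed to vary like the pair that remains. With a replicate block by letter 1038 genes were called, 723 of them shared with the 980; the block changed the number of interferon-stimulated genes that rose from 16 to 29. No called gene changed its sign under any of these settings. The share of calls that were higher, 73.8%, was 83.0% with TPM scaling, 64.4% with a mean FPKM of at least 5, 62.4% with quantile normalization and 45.7% with median scaling. The last 2 moved the median of all genes by -0.116 and -0.105. Among list medians, ERK feedback and EGFR ligands (0.07) turned to -0.035 with median scaling and ranged from -0.056 (without Q311E A) to 0.14 when a library was left out, and integrins (0.07) turned to -0.038 and ranged from -0.12 to 0.31. The cause was not tested. The planned count models in edgeR and DESeq2 were not run, as the deposited unit is FPKM. Limma-voom on the recovered reads stood in for them. There were 2 libraries in each line and 2 residual degrees of freedom. MX1, with a difference carried mainly by 1 Q311E library, was not called, whereas IFI6, with a similar SE and a larger difference, was. A gene not called is not shown to be alike in the lines.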
